A study of Mus musculus with 4 samples.

Results

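LTR retroelements were taken as the rows of the authors' deposited repeat overlap table whose name carries LTR as one of its fields, 691 of 1643 rows in all. They were 1 row for the whole class, 10 rows for families and 680 rows for single element types, such as MTD or IAPEz-int. For each row the table gives the number of copies and their summed length, the number of INO80 peaks that overlap a copy, the overlap in bp, and the overlap expected if the peaks lay at random. Rows named LTR? were a class of their own in the table (941 copies, 0 peaks) and were not counted as members.

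LTR retroelements are endogenous retroviruses and their relatives. An intact copy has an internal part, which holds the retroviral genes, between long terminal repeats (LTRs), which hold the promoter. Recombination between the LTRs of a copy removes the internal part and leaves a solo LTR, so most copies in the mouse genome are LTR ends alone. In germ cells many of these elements are held silent by DNA methylation and piRNAs, while some LTRs act as promoters or enhancers of host genes. INO80 is the ATPase of a chromatin remodelling complex that moves nucleosomes and edits their histone content, and is known for binding near promoters.

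The peaks came from chromatin immunoprecipitation sequencing (ChIP-seq) of INO80 in spermatocytes of DBA/2J x C57BL/6J F1 mice, with 2 INO80 ChIP libraries and 2 input libraries. All animals of both groups were given fertilysin for 7 days from 2 days after birth, which holds germ cells as spermatogonia, and retinoic acid at 9 days after birth, which releases them into meiosis together. Testes were taken 8 days later, and spermatocytes, labelled early zygotene of the first wave, were enriched on 28% Percoll. The labels do not say how many animals a library held, so the spread between libraries may be technical, and they list an adaptase library kit for the INO80 ChIP samples only. ChIP DNA carries no expression values, so the labelled cell type could not be checked against marker genes here.

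The INO80 ChIP libraries held 134.5 and 125.2 M reads, and the input libraries held 128.7 and 62.1 M reads (M, mega). Reads that mapped uniquely were 72.9% and 66.0% of the total in the INO80 ChIP libraries, against 54.7% and 63.8% in the input libraries. Reads from near-identical copies cannot be placed uniquely, and the part this plays in the overlaps below was not tested. The overlap table describes 1 set of 2847 peaks that the authors made from both INO80 libraries, with a mean width of 2091 bp. It therefore has no replicates and no input values, and all intervals below cover counting error only.

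LTR retroelements were rarely under INO80 peaks. The class held 972593 copies and 318 Mb, with a mean copy of 327 bp. Of the 2847 peaks, 158 overlapped an LTR copy, which is 5.55% (exact Clopper-Pearson 95% interval 4.74% to 6.46%). The overlap covered 28507 bp, against 946831 bp expected, so the ratio of observed to expected bp was 0.0301, or 33.2-fold below expectation. The authors' deposited table gives p = 1.7e-189 for this shortfall, and the adjusted p over all 1643 rows was 9.31e-187 (Benjamini-Hochberg). LTR sequence made up 15.9% of the genome size stated in the table header and 0.479% of the bp under peaks. The expected bp rests on that header size, which is smaller than the summed chromosome span. LTR sequence made up 12.5% of that span, and with it as genome size the ratio was 0.0385. The bp under a peak averaged 180 bp per overlapping peak, which is 55.2% of a mean copy.

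The same table places the LTR class between the other large repeat classes. The LTR ratio of 0.0301 was above that of LINEs (0.0149) and below that of DNA transposons (0.139) and SINEs (0.184). Per Mb of repeat sequence, LTR elements met 0.497 peaks (exact Poisson 95% interval 0.422 to 0.581), LINEs 0.263, DNA transposons 2.87 and SINEs 3.31. The LTR rate per Mb was 1.89 times the LINE rate (95% interval 1.50 to 2.38, adjusted p = 5.21e-08 by an exact conditional test of 2 counts, two-sided, over 6 class tests). Per copy, the LTR rate was 1.12 times the LINE rate (0.885 to 1.41, adjusted p = 0.357 by the same exact test), so the difference rested on the unit. Against SINEs the LTR rate was 0.150 per Mb and 0.371 per copy, and against DNA transposons 0.173 per Mb and 0.315 per copy, with adjusted p of 3.14e-15 or below for all 4 of these ratios by the same exact test.

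Nearly all peaks, 2794 (98.1%), touched a CpG island, and 2422 touched an annotated promoter. Intergenic sequence as a whole had a ratio of observed to expected bp of 0.125, and introns one of 0.898. The LTR ratio was 0.242 of the intergenic ratio. A wide peak also meets a given number of Mb more often when it is cut into short copies, and mean copies were 327 bp for LTR elements, against 553 bp for LINEs, 179 bp for DNA transposons and 132 bp for SINEs. How far the position of CpG islands and the length of copies set the LTR overlap was not tested.

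All 4 large LTR families were below expectation. These families held 99.6% of the class sequence. ERVK, the family of the IAP and ETn/MusD elements, had 130 Mb and 50 overlapping peaks, with a ratio of 0.0147. ERVL-MaLR, made of non-autonomous relatives of ERVL such as the MT, ORR1 and MLT elements, had 123 Mb and 58 peaks, with a ratio of 0.0310. ERV1, which includes the murine leukaemia virus relatives and VL30, had 31.3 Mb and 25 peaks, with a ratio of 0.0569. ERVL, the family of MERVL and the MT2 LTRs, had 32.6 Mb and 32 peaks, with a ratio of 0.0577. The p-values in the authors' deposited table for these shortfalls ran from 5.67e-80 for ERVK to 3.08e-17 for ERV1.

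Per Mb, the families fell into an order with ERVL at the top and ERVK at the bottom. ERVL met 0.983 peaks per Mb (exact Poisson 95% interval 0.672 to 1.39), ERV1 0.798 (0.517 to 1.18), ERVL-MaLR 0.473 (0.359 to 0.611) and ERVK 0.383 (0.284 to 0.505). Of the 6 family pairs, 3 passed the exact conditional test after Benjamini-Hochberg adjustment. That test treats the 2 counts of a pair as independent. Over all 10 families the counts sum to 174 peaks, against 158 for the class, so some peaks count in more than 1 family. The ERVL rate was 2.56 times the ERVK rate (95% interval 1.59 to 4.08, adjusted p = 0.000448) and 2.08 times the ERVL-MaLR rate (1.31 to 3.25, adjusted p = 0.0049), both by this exact test. The ERV1 rate was 2.08 times the ERVK rate (1.23 to 3.43, exact test, adjusted p = 0.00968).

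No neighbours in that order passed the test after adjustment. The rate ratio was 1.23 for ERVL over ERV1 (0.707 to 2.17, exact test, adjusted p = 0.508), 1.69 for ERV1 over ERVL-MaLR (1.01 to 2.74, unadjusted p = 0.0394, adjusted p = 0.0591) and 1.23 for ERVL-MaLR over ERVK (0.831 to 1.84, adjusted p = 0.349). The order was the same without the leading types, on fewer peaks. Without the type with the most peaks in each family, MT2B (10 peaks), RMER5 (7), MTD (11) and RLTR20A4 (7), the rates per Mb were 0.715 in ERVL, 0.616 in ERV1, 0.430 in ERVL-MaLR and 0.332 in ERVK. ERVL over ERVK still passed (rate ratio 2.15, exact test, adjusted p = 0.0392), while ERV1 over ERVK (1.86) and ERVL over ERVL-MaLR (1.66) did not (exact test, adjusted p = 0.094 and 0.115). Per copy, 4 pairs passed, and ERV1 over ERVL-MaLR was then 2.72 (exact test, adjusted p = 0.000512). The order changed per copy, with ERV1 first (0.347 peaks per 1000 copies), then ERVL (0.271), ERVK (0.157) and ERVL-MaLR (0.127). With LTR ends only, ERV1 over ERVL-MaLR was 2.46 (exact test, adjusted p = 0.000867), and ERV1 (1.43 per Mb) lay slightly above ERVL (1.40).

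**Figure D1:**
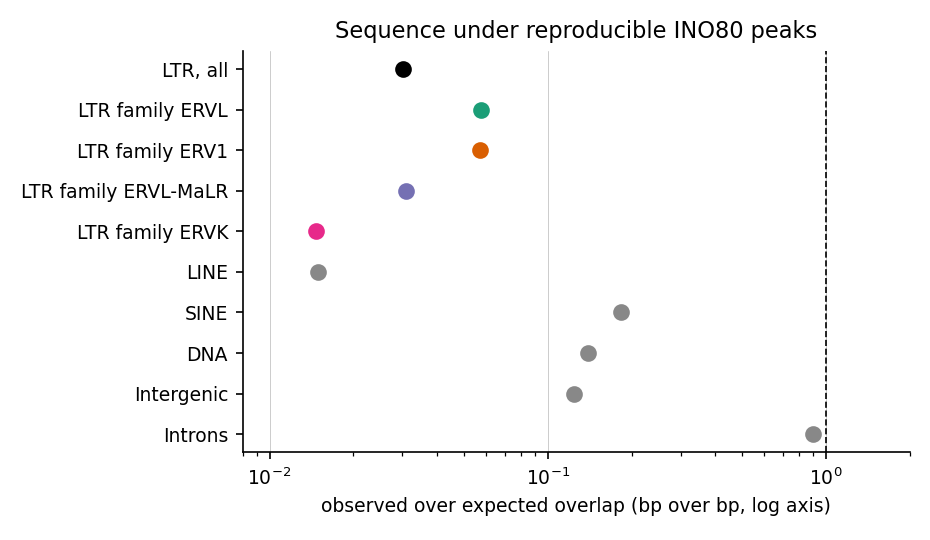
Observed over expected overlap in bp (log axis) for the LTR class, its 4 large families, the other large repeat classes, intergenic sequence and introns, from the authors' deposited table of 1 peak set. The LTR class is at 0.0301 and its families lie between 0.0147 (ERVK) and 0.0577 (ERVL), all below 1.

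The plot of ratios by class and family places the 4 large LTR families below DNA transposons and SINEs, and ERVK level with LINEs (0.0147 against 0.0149). The bp under each overlapping peak also differed between families. It averaged 212 bp in ERV1, 195 bp in ERVL-MaLR, 175 bp in ERVL and 114 bp in ERVK. In ERVK that was 27.9% of a mean copy of 409 bp, and in ERVL-MaLR 72.4% of a mean copy of 270 bp.

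The other 6 families were small, with 1.35 Mb and 9 peaks together. ERVK? held 6 of these peaks, all in RLTR51A_Mm, with a family ratio of 0.298. Gypsy held 2 peaks (ratio 0.152) and ERVL? 1 peak (ratio 0.315). The families named LTR, Gypsy? and ERV1? had 0 peaks. In the authors' deposited table the p-values of these 6 families ran from 0.409 to 0.974. By that p, which rests on bp, no departure from expectation was called in any of them, and their peak counts were not tested against expectation.

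Internal parts and LTR ends of the elements differed. Element types whose name ends in -int or _I were counted as internal parts, 149 types with 130015 copies and 93.2 Mb. The other 531 types were LTR ends, with 842578 copies and 225 Mb. Internal parts had an overlap of 1186 bp against 277512 bp expected, a ratio of 0.00427, while LTR ends had 27538 bp against 670513 bp expected, a ratio of 0.0411. The ratio was therefore 9.61-fold lower in internal parts. Summed over types, internal parts met 10 peaks and LTR ends 173, and a peak that touches several types counts once for each.

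Per Mb, internal parts met 0.107 peaks and LTR ends 0.768, a rate ratio of 0.140 (95% interval 0.0658 to 0.263, exact conditional test, adjusted p = 3.42e-15 over 5 tests). Per copy the rate ratio was 0.375 (0.176 to 0.706, exact test, adjusted p = 0.00354). Each large family showed the same direction per Mb. ERVL internal parts met 0 peaks in 8.92 Mb, against 33 peaks in 23.6 Mb of ERVL ends, and ERV1 internal parts met 1 peak against 24 in ends. ERVK internal parts met 5 peaks against 48 in ends (rate ratio 0.175, interval 0.0543 to 0.437), and ERVL-MaLR internal parts 4 against 59 (rate ratio 0.328, interval 0.0866 to 0.886, exact test, adjusted p = 0.0188). Per copy, the adjusted p by the exact test was 0.0483 for both ERVL and ERV1, 0.137 for ERVK and 0.659 for ERVL-MaLR.

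**Figure D2:**
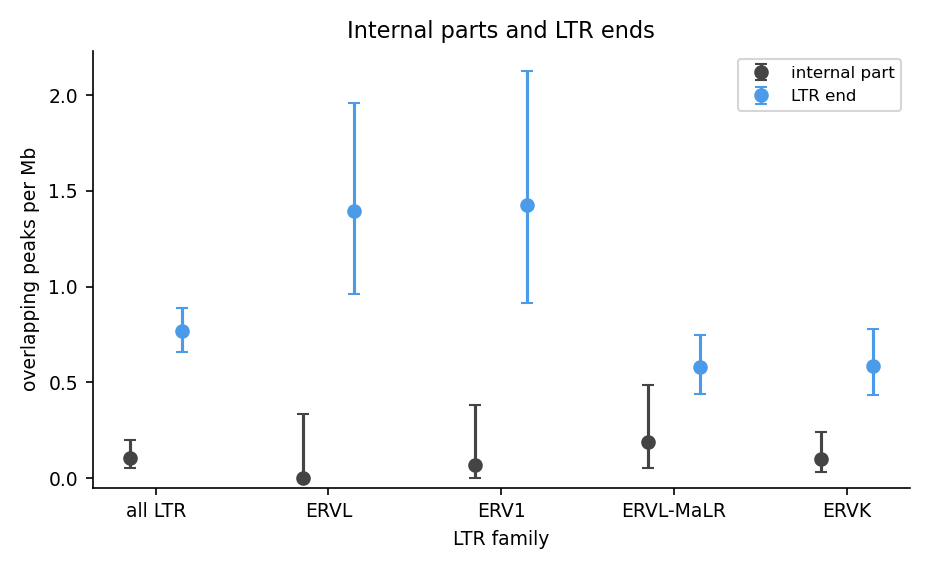
INO80 peaks per Mb of internal parts and of LTR ends, for all LTR elements and each large family, with exact Poisson 95% intervals (counting error only), or the limit of 3 counts where no peak was found. Internal parts met 0.107 peaks per Mb over all elements, against 0.768 in LTR ends, and no peak in ERVL.

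Among the 149 internal types, 9 had a peak. MYSERV6-int, of ERVK, had 2, and the other 8 had 1 each. In the plot of internal parts beside LTR ends, the internal rate lies below the rate of the ends in each of the 4 families, and in ERV1 and ERVL it rests on 1 and 0 peaks.

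Copy length moved with this difference. Internal parts had a mean copy of 717 bp, against 267 bp for LTR ends. Among LTR ends themselves, the ratio of observed to expected bp was 0.127 for types with a mean copy under 150 bp, 0.0494 from 150 to below 300 bp, 0.0218 from 300 to below 450 bp and 0.0116 at 450 bp or more. In internal parts it was 0.0192 from 300 to below 450 bp and 0.00203 at 450 bp or more, with 0 peaks in the 7 types under 150 bp and in the 42 types from 150 to below 300 bp. As the plot of overlap by copy length shows, the ratio in LTR ends was lower at each step in length, and in internal parts it was lower at 450 bp or more than from 300 to below 450 bp.

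Within a length range the difference did not pass the test. From 150 to below 300 bp, internal parts met 0 peaks and LTR ends 109 (rate ratio 0, upper bound 1.79, exact test, adjusted p = 0.415). From 300 to below 450 bp they met 2 and 15 peaks (rate ratio 0.598, interval 0.0663 to 2.57, exact test, adjusted p = 0.754). At 450 bp or more they met 8 and 7 peaks (rate ratio 0.388, interval 0.123 to 1.26, exact test, adjusted p = 0.219), with mean copies of 897 and 530 bp. The intervals reach from well under 1 to above it, so at this number of peaks neither a difference in peaks per Mb nor its absence was shown within these ranges. Length was not matched inside the widest range, and the ratio of observed to expected bp was not tested within ranges.

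**Figure D3:**
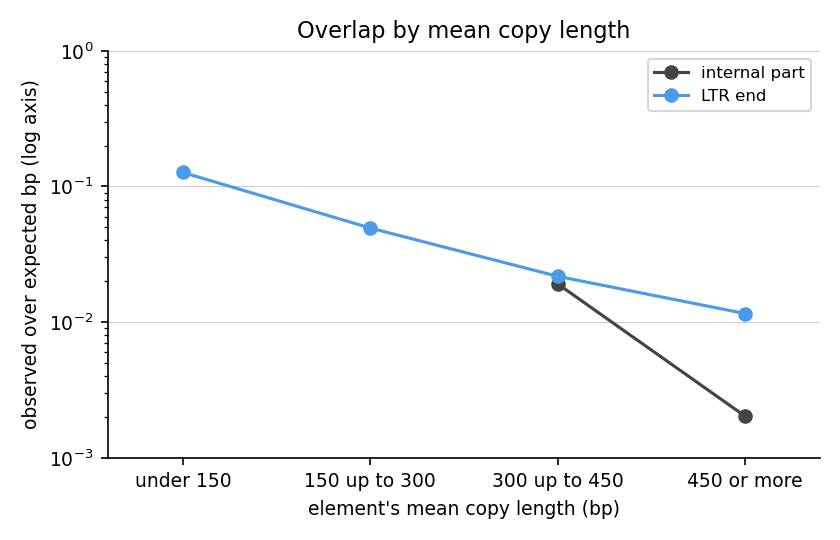
Observed over expected overlap in bp (log axis) of internal parts and LTR ends by mean copy length of the element type. LTR ends fall from 0.127 under 150 bp to 0.0116 at 450 bp or more; internal parts under 300 bp had 0 overlap and cannot be drawn on a log axis.

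Most single element types met no peak. Of the 680 types, 593 (87.2%) had no overlapping peak, where 76.6% of all single repeats in the table had none. These 593 types held 183 Mb, 57.5% of the LTR sequence, and an expected overlap of 545435 bp. Their median expected overlap was 316 bp, against 2593 bp for the 87 types with a peak. Where at least 1000 bp was expected, 146 of 202 LTR types (72.3%) had no peak, where 206 of 402 single repeats of any kind (51.2%) had none. The counts were 46 of 91 for LINE types (50.5%), 7 of 19 for DNA transposon types (36.8%) and 0 of 32 for SINE types. This range has no upper limit, so expected bp was not matched between the classes. Among the 87 types with a peak, 56 had 1, 12 had 2 and 19 had 3 or more.

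By the p-values in the authors' deposited table, adjusted over its 1643 rows, 15 of the 691 LTR rows were below expectation at an adjusted p under 0.05, which is 2.17%, where 4.2% of all rows were. They were the class row, the 4 large families and 10 single types. With Bonferroni adjustment 3 of the 10 types remained, MTD, IAPEz-int and MTC. No LTR row was above expectation, where 0.365% of all rows were, and none was at an unadjusted p under 0.05 either. Of the 680 single types, 28 were below expectation at an unadjusted p under 0.05 in the authors' deposited table. The share of all single repeats at that threshold was not computed, so this count has no background beside it.

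The 10 called types were also the 10 with the largest expected overlap. MTD, an LTR of the MT group, had the most peaks of any type, 11, with 1983 bp of overlap against 39850 expected (ratio 0.0498, adjusted p = 2.94e-07 from the authors' deposited table). MTC, an MT LTR known as an active promoter in oocytes, had 6 peaks and a ratio of 0.0418. MTA_Mm had 1 peak with 38 bp, a ratio of 0.00221. MTEa had 3 peaks and a ratio of 0.0488.

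The ORR1 LTRs, also of the ERVL-MaLR family, made up 4 of the 10. ORR1E had 1 peak (ratio 0.00654), ORR1F 2 (0.0212), ORR1B1 2 (0.0487) and ORR1D1 5 (0.0668). The remaining called types were internal parts with 0 peaks. IAPEz-int, the coding part of the IAP retrovirus-like element, had 0 bp of overlap against 35318 expected, and MERVL-int 0 bp against 12852. A count of 0 allows up to 0.253 peaks per Mb for IAPEz-int and 0.695 for MERVL-int.

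A call depended on how much sequence a type had. MERVL-int was the last called, with 12852 bp expected and an adjusted p of 0.0462, and ORR1A2 the first not called, with 12341 bp expected, 3 peaks and an adjusted p of 0.0576, both from the authors' deposited table. A type with no overlap and at least 2000 bp expected had a deposited log p equal to its expected bp divided by the mean peak width, within 0.996 to 1.00 times over 74 types. Only 119 of the 680 types had an expected overlap of at least 1 mean peak width. By the deposited p, 0 peaks in the other types, and in many of these, was therefore not distinguishable from expectation. That p counts in mean peak widths of 2091 bp, while LTR overlaps averaged 180 bp per peak. Whether the number of peaks per type fell short of a random placement was not tested.

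**Figure D4:**
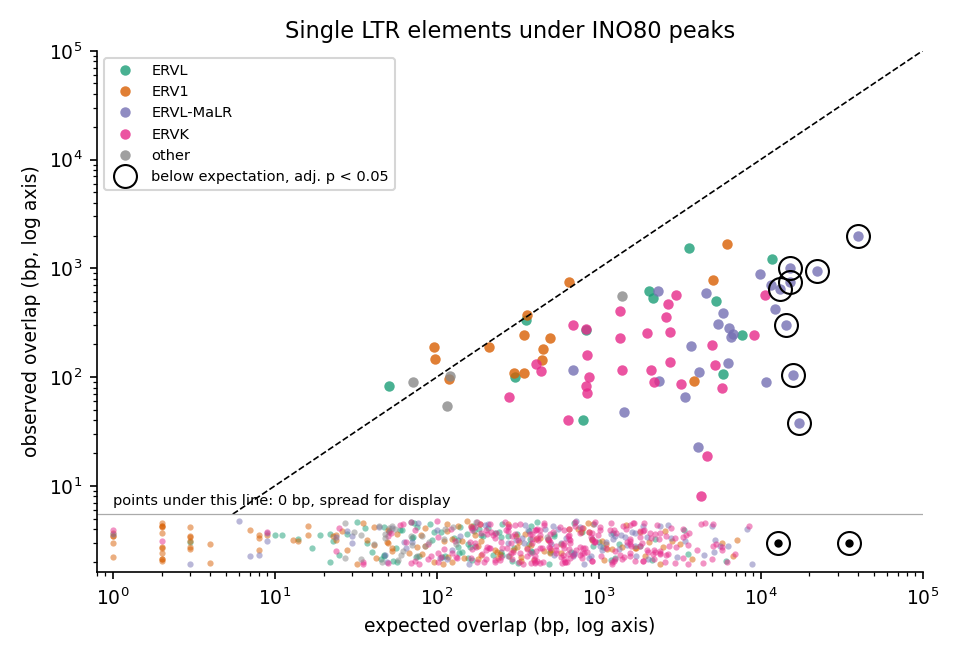
Observed against expected overlap in bp (both log axes) for single LTR element types with an expected overlap above 0, coloured by family, with types at 0 bp in the strip at the bottom and the 10 called below expectation ringed. The ringed types are the 10 farthest to the right, from 12852 bp expected (MERVL-int) to 39850 bp (MTD), and the dashed line marks observed equal to expected.

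The types nearest to expectation among those with at least 3 peaks had mean copies of 78 to 280 bp. No internal part had more than 2 peaks, so only LTR ends could enter this list. RMER10A, an ERVL LTR, had 6 peaks and 1540 bp of overlap against 3613 expected, a ratio of 0.426. RLTR51A_Mm had 6 peaks and a ratio of 0.400. RLTR20C1_MM had 6 peaks (ratio 0.301), and its relatives RLTR20A4 had 7 (0.176) and RLTR20C2_MM 4 (0.170). RLTR31D_MM had 6 peaks and a ratio of 0.190.

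MT2B2, an MT2 LTR, had 3 peaks and a ratio of 0.300, while MT2B had 10 peaks but a ratio of 0.0948, since each overlap averaged 50.2 bp. RMER5, an ERV1 LTR, had 7 peaks with 1672 bp against 6186 expected (ratio 0.270). MLTR14 had 3 peaks (ratio 0.153) and RMER15 6 peaks (ratio 0.104). These types were chosen for their ratio, so the values are a description, and all of them were below 1.

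Of the 680 types, 6 exceeded their expected bp (0.882%, where 5.38% of all single repeats in the table did), each on 1 or 2 peaks. They were named after their values were seen. The ratios were 1.98 in RLTR48B, 1.63 in LTR16D1, 1.52 in LTR65, 1.28 in MamGypLTR1c, 1.14 in RMER21A and 1.03 in MER31B. The expected overlap was between 51 and 657 bp, under 1 mean peak width in each, and the authors' deposited table gives p = 1 for all 6.

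Types were also grouped by name, and the ratio of observed to expected bp in these groups ran from 0 (IAP elements among them) to 0.0514 (RMER elements). IAP elements, active retrovirus-like elements of ERVK, comprised 25 types with 24.5 Mb and met 0 peaks where 73043 bp of overlap was expected, which allows up to 0.122 peaks per Mb. ETn and MusD elements (5 types, 5.36 Mb) and VL30 elements (5 types, 3.49 Mb) also met 0 peaks, which allows up to 0.560 and 0.859 peaks per Mb. MuLV-like elements (5 types, 4.70 Mb) met 1 peak, in MuRRS-int. These 4 groups have mean copies of 854 to 1104 bp, and the part that copy length and read placement play in their counts was not tested.

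MERVL and its LTR, MT2_Mm, are known for their activity in early embryos. Grouped with MERVL_2A-int and the other MT2 types, they had 15 peaks in 15.3 Mb, 0.980 per Mb (exact Poisson 95% interval 0.548 to 1.62), with a ratio of 0.0322. MT2B held 10 of these peaks in 1.78 Mb, and without it the others had 5 peaks in 13.5 Mb, 0.370 per Mb (0.120 to 0.862). MERVL-int, MERVL_2A-int, MT2_Mm and MT2C_Mm had 0 peaks, so all 15 peaks lay in MT2A, MT2B, MT2B1 and MT2B2. MT elements had 33 peaks in 53.7 Mb (0.614 per Mb, ratio 0.0396) and ORR1 elements 24 in 51.7 Mb (0.464 per Mb, ratio 0.0282). The 58 MLT1 types, also of ERVL-MaLR, had 6 peaks in 16.9 Mb (0.356 per Mb, ratio 0.0133, or 0.00809 without MLT1D, which held 2 of the peaks). RMER elements, which belong to several families, had 31 peaks in 43.6 Mb (0.710 per Mb, ratio 0.0514).

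RLTR10 elements, of which RLTR10B copies are known as enhancers bound by the transcription factor A-MYB in meiotic spermatocytes, had 1 peak in 4.88 Mb, in RLTR10A. RLTR10B itself had 0 peaks where 286 bp was expected, which allows up to 31.2 peaks per Mb, so a moderate rate was not detectable. RMER17B, also known as a source of A-MYB enhancers, had 0 peaks where 5009 bp was expected, which allows up to 1.78 peaks per Mb.

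**Figure D5:**
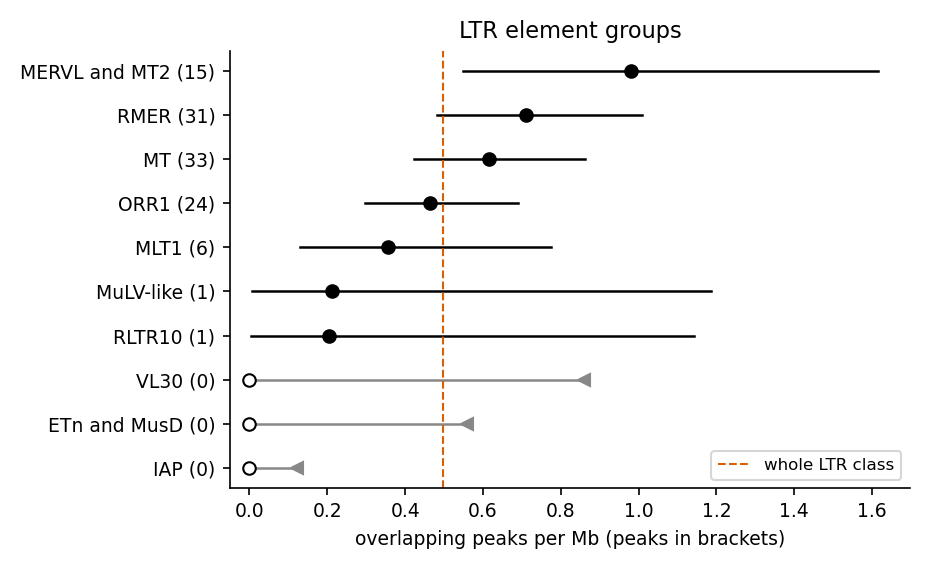
INO80 peaks per Mb for 10 groups of LTR elements formed by name, with exact Poisson 95% intervals (counting error only). Where no peak was found, the limit of 3 counts is drawn (arrowheads). The dashed line is the whole LTR class (0.497). IAP, ETn and MusD, and VL30 elements are at 0; the rate of MERVL and MT2 (0.980) is 0.370 without MT2B.

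The plot of element groups shows intervals that overlap for MERVL and MT2, MT, ORR1 and RMER elements, while the limit of 0.122 peaks per Mb for IAP elements lies below the lower ends of those 4 intervals. Without MT2B, the lower end for MERVL and MT2 is 0.120, and the limit for IAP elements no longer lies below it. No test between groups was made.

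A peak that overlaps an LTR copy need not be centred on it. In the authors' deposited peak annotation, 1 of 2847 peaks had its centre in an LTR element (0.0351%, exact Clopper-Pearson 95% interval 0.000889% to 0.196%), so the other 157 LTR-overlapping peaks were centred elsewhere or on sequence that the annotation ranks first. Among 289 peaks centred in introns or intergenic sequence outside CpG islands, the same peak was 0.346% (0.00876% to 1.91%). Repeats of any kind were named for 35 peaks, among them 11 SINEs, 2 LINEs and 1 DNA transposon.

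The LTR-centred peak lay on an RLTR20A4 copy in intron 1 of 30 of Tns3, which encodes the focal adhesion protein tensin 3. It spans chr11:8623564-8624925 (GRCm38, 1362 bp), 40291 bp downstream of the transcription start of Tns3, a minus-strand gene. Of all reproducible peaks, 80.7% lay within 1 kb of a transcription start. Its fold enrichment, as the authors' peak caller gave it, was 3.37 in INO80 replicate 1 and 5.15 in replicate 2 (mean 4.26 ± 1.26, SD, n = 2 libraries). Over all reproducible peaks the median folds were 3.69 and 5.08 in those replicates, and 30.0% of peaks had a lower fold in replicate 1 and 52.2% in replicate 2. The −log10 q was 4.999 in replicate 1 and 18.5 in replicate 2, against medians of 6.35 and 17.2. The replicates' own peaks covered 55.1% and 92.1% of it.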

How the data were processed

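Chromatin bound by INO80 was measured in 2 ChIP libraries with 2 input libraries. Tools listed in the submitters' processing notes are BWA, fastp, deepTools 3.4.3, MACS2 2.2.7.1, Picard 2.21.2 and SAMtools 1.11, on build GRCm38 (mm10), with no role given. The control used in peak calling, the overlap tool and the repeat annotation version are not given in the sources used here. Per the file headers, the deposited overlap tables give copies, bp, overlapping peaks, overlap bp and expected bp for a genome of 2.00e+09 bp, together with a p-value, a score that is its signed log, and the ratio of observed to expected bp as a natural log. The deposited broad peak lists (5123 peaks in INO80 replicate 1 and 7836 in replicate 2) give the authors' fold, score and −log10 q per peak. Read numbers per library were deposited as rounded values.

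Observed over expected was overlap bp divided by the deposited expected bp. The deposited p-value was adjusted with Benjamini-Hochberg over all 1643 rows. Peak counts were compared by an exact conditional binomial test of 2 Poisson counts with bp or copies as exposure, two-sided, for families of at least 1 Mb (scipy 1.17.1, pandas 2.3.3, Python 3.11.15). The test was tried on simulated independent counts with the sizes of the large families, a setting that does not cover peaks shared between families. Intervals are exact at 95%, and a count of 0 was given the upper limit of 3 counts, which is below the upper end of its exact 95% interval, 3.69 counts. Fold per replicate was that of the strongest broad peak sharing at least 1 bp with the reproducible peak.

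The members, element groups and tests were chosen with earlier results of these data known. Single types named were the 10 with the most peaks, the 10 with the highest ratio among those with at least 3 peaks, and the 10 with the largest expected bp, plus all families, the element groups and LTR-centred peaks. The class tests and the length ranges were chosen after seeing the data. Alternatives covered genome size, the unit of the rate, leaving out the leading types, the adjustment, and filters. Positions of single repeat copies were not analysed here, so LTR overlap was not computed per replicate, and no element sequence is given.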

Additional observations from a re-analysis of the deposited data

How the results depend on the processing

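The LTR class ratio (0.0301) stayed below 1 in all 3 alternatives: 0.0385 with the summed chromosome span as genome size, 0.274 relative to all repeat classes in bp, and 0.160 relative to them in peaks per Mb. With peaks per 1000 copies relative to all repeat classes, the family values were 0.376 for ERVL, 0.481 for ERV1, 0.177 for ERVL-MaLR and 0.217 for ERVK. Family pairs that passed numbered 3 of 6 per Mb, 3 with Bonferroni, 4 per copy, 4 with LTR ends only and 1 without the leading type of each family. Without those types, ERVL over ERVL-MaLR was 1.66 and ERV1 over ERVK 1.86 (exact test, adjusted p = 0.115 and 0.094). The direction turned for ERVL over ERV1 (0.780 per copy, 0.977 with LTR ends only) and for ERVL-MaLR over ERVK (0.814 and 0.989), pairs that passed in no setting. The cause was not tested. Types called below expectation numbered 10, or 3 with Bonferroni (MTD, IAPEz-int and MTC), and 13 with at least 100 bp expected, where fewer types are tested. Calls above expectation were 0 in each setting. Internal parts over LTR ends (0.140 per Mb) was 0.375 per copy, 0.598 from 300 to below 450 bp and 0.388 at 450 bp or more, where fewer peaks enter. The comparisons per copy of internal parts, within length ranges, with LTR ends only and of element groups without their leading type were chosen after seeing the data. Leaving out the leading type moved MERVL and MT2 to 0.370 peaks per Mb, and the rates of the other 4 groups with at least 3 peaks by less than 1.5 times. The fold of the Tns3 peak was 3.37 to 5.15 with either replicate left out. No paired analysis was possible because the repeat table describes 1 peak set made from both INO80 libraries and holds no value per library. The number of peaks, and the mean peak width in which the deposited p counts, limit what can be called: most element types expected less than 1 such width of overlap.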
